A study of Mus musculus with 17 samples.

Results

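Immediate early genes and the AP-1 family were followed in sorted HSPC, the stem and progenitor cells of the bone marrow that make blood. The set held 10 genes chosen by symbol, Fos, Fosb, Jun, Junb, Jund, Egr1, Ier2, Dusp1, Atf3 and Zfp36, out of 35321 genes in the count table, and all 10 passed the filter on low counts. Polyadenylated RNA had been sequenced from HSPC sorted from wild-type C57BL/6J mice, an inbred strain. The 5 groups were PBS labelled day 0 (5 libraries), LPS alone given 24 h (3) or 72 h (3) before harvest, and LPS plus a blocking antibody against the receptor of interleukin-10 (IL-10R) given 24 h (3) or 72 h (3) before harvest. Lipopolysaccharide (LPS) is a bacterial outer-membrane component that triggers inflammation, and all injections were intraperitoneal. The amounts are given as 5 for LPS and 100 for the antibody, in micrograms in the series' design text and in milligrams in the sample labels. Age, sex and the surface markers of the sort are not given in the sources used here, there was no group with the antibody alone, and the antibody groups had no isotype control among the samples used here. Nothing states that libraries came from separate mice, so p-values measure only the spread between these samples, which may be technical.

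Immediate early genes are switched on within minutes of a signal, without new protein synthesis, mostly through MAP kinases acting on serum response factor (SRF) and its partners. Fos and Jun proteins pair through leucine zippers to form AP-1, which binds DNA upstream of many inflammatory and growth genes. The same transcripts are known to rise when cells are dissociated, warmed or sorted, so their level in sorted cells can carry both the state of the animal and the steps after harvest. Per the labels, cells were sorted straight into RNA lysis buffer and processed at once, but the order and duration of the sorts are not given in the sources used here.

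Total counts ranged from 10516722 to 16006001 per library. Values below are CPM, the count of a gene relative to the library's total count scaled by a TMM factor. The factor was 0.799 in LPS library 1 at 24 h and 0.947 to 1.12 in the other libraries. Of the defining HSPC markers, Kit, the stem cell factor receptor, was at 399 ± 60.8 CPM and Cd34 at 691 ± 77.3 CPM in PBS (SD, n = 5), and Ly6a at 61.7 ± 24.3 CPM. The library names are written in 1 style for PBS, another for both 24 h libraries numbered 1 and another for the rest. Whether these styles mark batches is not stated, and a batch of PBS libraries cannot be told apart from the PBS group.

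Promoters are shown for the 4 members whose libraries were all lower with LPS at 24 h than with PBS. RefSeq (GRCm38.p6) windows of 300 bases around the annotated start were matched for 8 of 10 members, all but Egr1 and Ier2. The 250 bases before the start are printed 5′ to 3′ on the coding strand for Zfp36 (chr7:28379229-28379478, minus strand), Fos (chr12:85473640-85473889, plus), Jun (chr4:95052223-95052472, minus) and Dusp1 (chr17:26508473-26508722, minus). Capitals mark matches, on either strand, to a CArG box (the SRF motif), GCGNGGGCG (the EGR motif), TGACGTCA (the cyclic AMP response element), TGACATCA (the Jun-type variant), TGANTCA (the AP-1 motif) or TATAAA.
Zfp36: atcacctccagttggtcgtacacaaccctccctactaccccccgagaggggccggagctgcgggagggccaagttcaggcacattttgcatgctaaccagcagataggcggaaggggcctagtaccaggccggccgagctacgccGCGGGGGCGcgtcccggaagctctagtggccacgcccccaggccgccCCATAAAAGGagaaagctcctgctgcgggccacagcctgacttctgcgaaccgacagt
Fos: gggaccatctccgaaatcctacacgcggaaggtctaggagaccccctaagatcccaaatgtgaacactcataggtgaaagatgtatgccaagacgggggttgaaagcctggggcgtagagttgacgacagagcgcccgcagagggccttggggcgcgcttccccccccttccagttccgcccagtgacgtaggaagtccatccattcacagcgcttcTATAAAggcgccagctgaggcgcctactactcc
Jun: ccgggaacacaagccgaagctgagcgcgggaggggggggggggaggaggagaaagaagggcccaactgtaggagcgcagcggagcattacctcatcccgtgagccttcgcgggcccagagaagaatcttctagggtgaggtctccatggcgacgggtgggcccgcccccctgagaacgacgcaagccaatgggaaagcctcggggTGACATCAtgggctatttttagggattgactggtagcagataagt
Dusp1: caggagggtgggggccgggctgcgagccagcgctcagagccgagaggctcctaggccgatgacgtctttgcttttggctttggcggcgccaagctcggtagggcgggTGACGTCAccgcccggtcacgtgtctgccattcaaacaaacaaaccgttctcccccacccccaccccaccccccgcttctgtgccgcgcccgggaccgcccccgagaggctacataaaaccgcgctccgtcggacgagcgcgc
Zfp36 held the only CArG box among the 8 windows, 58 bases before the start, and an EGR motif. A CArG box was present in 1.63% of all 32851 windows and an EGR motif in 5.55%. Dusp1 held the cyclic AMP response element (1.79% of all windows), Jun the Jun-type variant (3.62%) and Fos TATAAA (13.6%). The AP-1 motif itself was in 0 of 8 member windows and in 7.81% of all windows. Of the members not printed, Fosb also held an EGR motif and Junb TATAAA. These matches describe letters in the window and are not measured binding sites. Sequence outside the windows was not searched, so a member without a match may hold the motif elsewhere. In the GENCODE annotation of GRCm38, Zfp36 is a gene of 1 merged exon at chr7:28376784-28380253, which spans the printed window, and Jun is a gene of 1 exon at chr4:95049034-95052222. Fos has 4 exons at chr12:85473890-85477273 and Dusp1 6 merged exons at chr17:26505590-26562128. The Jund window, chr8:70697489-70697788, ends before its GENCODE gene begins at chr8:70698949, so it is not at the start of that gene model.

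In PBS cells the set was led by Jun. Compared per kilobase of merged exon, the mean PBS level was 67.3 CPM per kb for Jun, 40.4 for Ier2, 40.3 for Zfp36, 26.6 for Fos, 21.8 for Junb, 18 for Jund, 16.2 for Egr1, 8.31 for Dusp1, 3.76 for Fosb and 0.344 for Atf3. Jun and Zfp36 were among the 3 most abundant members, and Atf3, a stress-induced ATF-family factor, was close to undetected. The exon lengths come from GENCODE, which may not be the annotation the authors counted on.

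**Figure D1:**
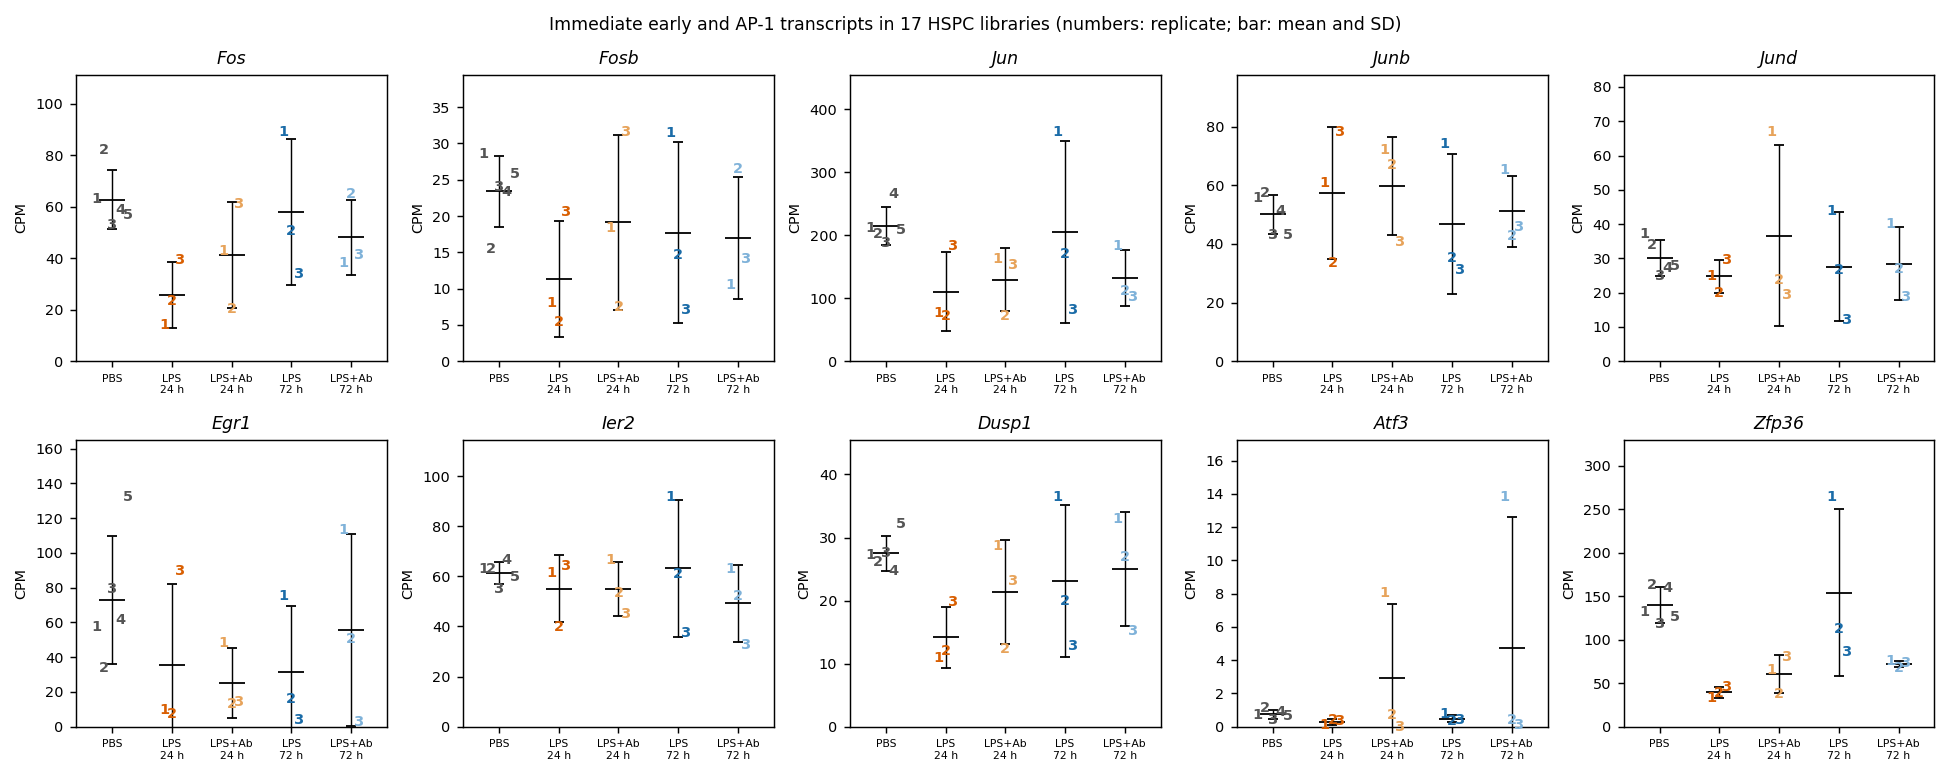
CPM of each of the 10 genes (vertical axes, each from 0) in the 17 libraries by group, with PBS in grey, LPS in dark colours and LPS plus antibody (LPS+Ab) in pale ones. Digits are single libraries by replicate number and bars show the mean and SD, stopping at 0. Zfp36 at LPS 24 h lies at 33.3 to 45.9 CPM against 118 to 163 CPM in PBS, while Egr1 spreads widely in every group.

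The first comparison asked how these transcripts stood 24 h after LPS. Of the 10 members 3 fell, Zfp36, Fos and Dusp1, none rose, and 9 had a log2 change below 0. The share of all 14920 tested genes called in either direction was 37.6%, and 18.5% were called lower, and a share of 3 in 10 called lower is not far from that background. The median log2 change was -0.996 over the 10 members and -0.03 over all genes tested. In bulk RNA, fewer cells of a type and less RNA per cell cannot be told apart.

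Zfp36 encodes tristetraprolin, which binds AU-rich elements of cytokine messages such as Tnf and speeds their decay. Its level was 132, 163, 118, 160 and 126 CPM in PBS and 33.3, 38.9 and 45.9 CPM with LPS at 24 h. Every LPS library lay far below every PBS library. The log2 change was -1.83 (SE 0.319, adjusted p = 0.000892 by edgeR's quasi-likelihood test), and it was called in all 8 fits that left out 1 library.

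Fos, the AP-1 partner of the Jun proteins, was at 62.8, 82.1, 52.7, 58.8 and 56.8 CPM in PBS and at 14.1, 23.3 and 39.3 CPM with LPS. The groups did not overlap. Its log2 change was -1.29 (SE 0.388, edgeR adjusted p = 0.0172). Dusp1, the phosphatase that switches off p38 and JNK kinases, was at 27.2, 26.1, 27.5, 24.7 and 32.1 CPM in PBS and at 10.8, 12 and 19.7 CPM with LPS. These groups were also separate. Its log2 change was -0.95 (SE 0.344, edgeR adjusted p = 0.0394). Without LPS library 1 or 2 neither was called, with an edgeR adjusted p of 0.101 and 0.0545 for Fos and of 0.171 and 0.117 for Dusp1. Dusp1 was called in 2 of 8 such fits, and with a replicate block the adjusted p was 0.0527 for Fos and 0.0969 for Dusp1.

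Jun was at 211, 202, 187, 265 and 209 CPM in PBS and at 77, 71.8 and 183 CPM with LPS. The groups were separate, but LPS library 3 came within a few CPM of the lowest PBS library. The log2 change was -0.96 (SE 0.424) and did not pass the test (edgeR adjusted p = 0.0868). Libraries were separate and lower with LPS for 4 of 10 members, against 22.2% of all genes tested. Without LPS library 3 the call was made for 5 members, with an adjusted p of 0.0231 for Jun and 0.034 for Fosb.

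The other members did not pass the test at 24 h. Fosb, a Fos paralog, had 15.5 to 28.6 CPM in PBS and 8.07, 5.42 and 20.5 CPM with LPS, and its log2 change was -1.05 (SE 0.533, edgeR adjusted p = 0.135). Egr1, a zinc-finger factor tied to quiescence and marrow retention of stem cells, had 33.5 to 132 CPM in PBS and 9.46, 7.14 and 89.4 CPM with LPS. LPS library 3 alone held Egr1 within the PBS range. The log2 change was -1.03 (SE 1.04, edgeR adjusted p = 0.454) and became -3.13 (adjusted p = 0.0691) without that library. Junb (0.20), Jund (-0.28) and Ier2 (-0.16), a nuclear protein of the growth factor response, had log2 changes of small size with edgeR adjusted p-values from 0.616 to 0.65. Atf3 was at or below 1.1 CPM in all 8 libraries.

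Other measurements moved with LPS at 24 h. The summed level of the 11 monocyte-macrophage markers was 375 to 2600 CPM in PBS and 135 to 155 CPM with LPS, and that of the B and plasma cell markers 373 to 1320 CPM and 69 to 88.9 CPM. Most of the B and plasma cell sum in PBS was Jchain, at 250 to 1180 CPM against 19 to 33 CPM with LPS. Cd79b and Ms4a1 overlapped between the groups. The summed level of 9 HSPC markers was 1570 to 2340 CPM in PBS and 924 to 1090 CPM with LPS, with Flt3, a receptor of multipotent and lymphoid progenitors, at 446 ± 84.9 (SD, n = 5) and 81.6 ± 37.2 CPM (SD, n = 3). Ly6a went the other way, at 32.6 to 85.2 CPM in PBS and 108 to 222 CPM with LPS without overlap, but its log2 change of 1.40 did not pass the test (edgeR adjusted p = 0.117). Of these 3 lists, 9 of 11, 3 of 7 tested and 6 of 9 genes fell, against 18.5% of all genes tested. None of the tested genes of these lists was at 0 in every library. Neutrophil granule markers summed to 2360 to 13900 CPM in PBS and 7970 to 16000 CPM with LPS, and T and NK cell markers to 110 to 271 and 106 to 266 CPM. Most of the T and NK sum was Nkg7, at 75.8 to 235 CPM in PBS and 97.2 to 246 CPM with LPS. Cd4 (7.91 to 43.7 and 0.742 to 1.72 CPM), Cd8a (3.14 to 6.25 and 0.191 to 0.755 CPM) and Cd3e were lower with LPS without overlap. Nkg7, Cd3d, Cd3g, Klrb1c, Ncr1 and Gzma overlapped between the groups. Erythroid markers summed to 87.4 to 231 and 61.1 to 117 CPM, and 1 of 9, Hbb-bt, fell. The sum held opposite movements without overlap: Klf1 was at 5.47 to 16.5 CPM in PBS and 20.4 to 42 CPM with LPS and Epor, the erythropoietin receptor, at 4.91 to 10.4 and 10.8 to 22.7 CPM, while the globin Hba-a1 was at 20.3 to 65.1 and 7.14 to 15.8 CPM. With antibody at 24 h the macrophage sum was 174 to 230 CPM and the HSPC sum 1040 to 1370 CPM. At 72 h they were 243 to 417 and 1640 to 2180 CPM with LPS, and 187 to 444 and 1080 to 1710 CPM with antibody. The part of these shifts in the lower Zfp36, Fos and Dusp1 was not tested.

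LPS plus antibody at 24 h was set against the same PBS libraries, so it is not independent of the comparison above. Only Zfp36 fell, 1 of 10 members, where 24.2% of all genes were called and 12.5% were called lower. Zfp36 was at 65.3, 37.3 and 80.2 CPM, again below every PBS library. Its log2 change was -1.20 (SE 0.308, edgeR adjusted p = 0.0146). It was not called without antibody library 2 (adjusted p = 0.0823). Fos was at 42.7, 20.1 and 60.9 CPM and Dusp1 at 28.6, 12.3 and 23.1 CPM, both overlapping PBS, with log2 changes of -0.60 (adjusted p = 0.253) and -0.37 (adjusted p = 0.442). Jun, at 163, 71.8 and 153 CPM, stayed below PBS in all 3 libraries with a log2 change of -0.74 (adjusted p = 0.21). Library 2 of the antibody group was the lowest for 6 of 10 members. The median log2 change of the members was -0.33.

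At 72 h after LPS, 0 of 10 members were called against PBS by edgeR's test, 0 had an unadjusted p below 0.05, and DESeq2 and voom also called 0. The background was nearly empty too, with 0.0201% of all genes called and 11.4% at an unadjusted p below 0.05. Zfp36 was at 264, 112 and 85.9 CPM, Fos at 89, 50.6 and 33.8 CPM, Jun at 364, 170 and 82.1 CPM and Dusp1 at 36.4, 20 and 12.8 CPM. Library 1 was above, and library 3 below, the whole PBS range for each of these 4 genes. Library 2 was also below every PBS library for each of them, so 2 of 3 libraries lay below PBS and 1 above. The log2 changes were 0.14 for Zfp36, -0.12 for Fos, -0.06 for Jun and -0.26 for Dusp1, with SEs from 0.293 to 0.409 on the log2 scale.

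With antibody at 72 h, Zfp36 was at 74.9, 67.9 and 73.4 CPM, 72.1 ± 3.69 CPM (SD, n = 3), the smallest SD of its 5 groups. All 3 libraries were below PBS. It was the 1 of 10 members called against PBS (13.2% of all genes called, 6.43% lower), and its log2 change was -0.96 (SE 0.305, edgeR adjusted p = 0.0498). The call sat at the threshold and was lost in each of the 8 fits without 1 library (adjusted p from 0.066 to 0.12) and without the filter on low counts (0.0599). Jun was at 183, 112 and 102 CPM, also separate from PBS, with a log2 change of -0.70 (adjusted p = 0.263). Fos, at 38.1, 64.7 and 41.3 CPM, and Dusp1, at 33, 26.9 and 15.1 CPM, overlapped PBS, with log2 changes of -0.38 and -0.14. Atf3 had a log2 change of 2.67 (SE 1.16, adjusted p = 0.126) that rested on 1 library.

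**Figure D2:**
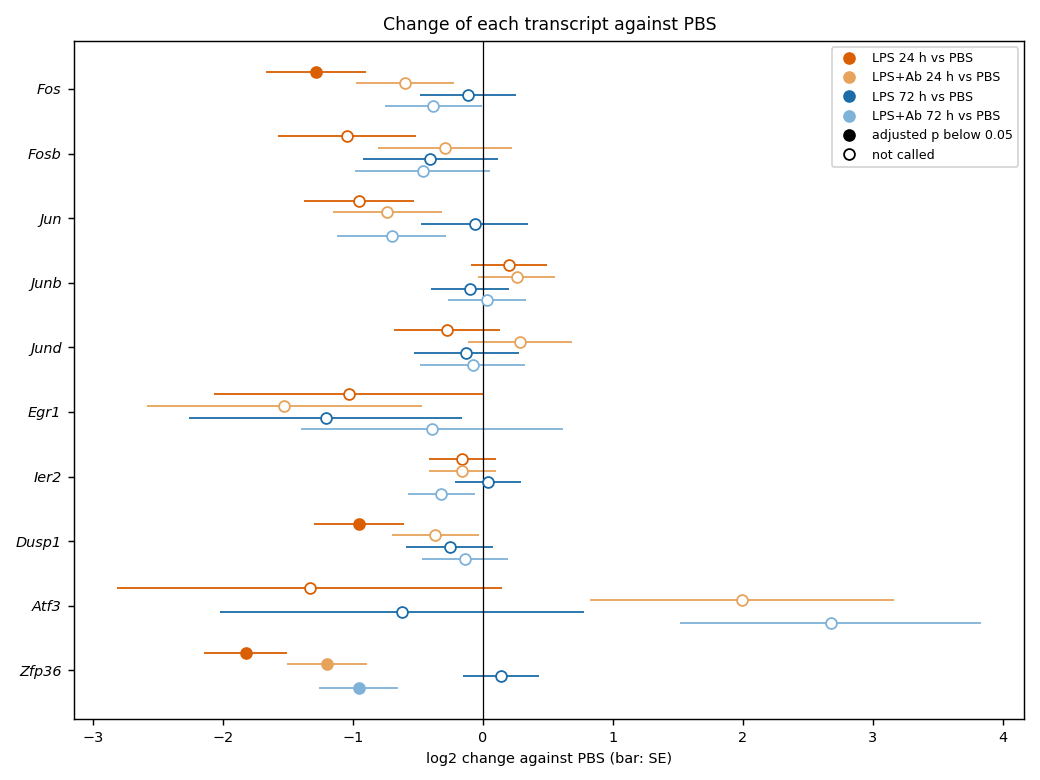
The log2 change of each gene against PBS (horizontal axis), one point per treated group, with bars of 1 SE. Filled points have an edgeR adjusted p below 0.05 and open points do not; Zfp36 is filled in 3 of 4 groups, lies at 0.14 for LPS at 72 h, and Fos and Dusp1 are filled for LPS at 24 h alone.

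The effect of blocking IL-10R was read within each time. At 24 h, 0 of 10 members and 0% of all genes were called between LPS with and without antibody, while 1 member, Atf3, and 1.83% of all genes had an unadjusted p below 0.05; DESeq2 and voom called 0 members. Zfp36 had a log2 change of 0.63 (SE 0.334), Fos 0.68 (SE 0.417), Dusp1 0.59 (SE 0.375) and Jun 0.22 (SE 0.458), all with an edgeR adjusted p of 1. The log2 change was above 0 for 9 of 10 members, and the libraries of all 10 overlapped. The sign for Jun turned with voom (-0.32).

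At 72 h, Zfp36 was the 1 of 10 members called between LPS with and without antibody, where 15.1% of all genes were called and 6.48% were lower. All 3 antibody libraries, 67.9 to 74.9 CPM, were below the 3 LPS libraries, 85.9 to 264 CPM. The log2 change was -1.09 (SE 0.333, edgeR adjusted p = 0.0386). LPS library 1 was at 264 CPM, and leaving it out gave -0.46 (adjusted p = 0.284). The call was also lost without any 1 of the 3 antibody libraries (adjusted p from 0.0749 to 0.0962) and in a fit of the compared groups only (0.133). Jun had a log2 change of -0.64, Fos -0.27 and Dusp1 0.12, with edgeR adjusted p-values of 0.355, 0.688 and 0.853.

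The antibody effect on Zfp36 differed between the times: it was 0.63 at 24 h and -1.09 at 72 h, a difference of -1.72 in log2 change (SE 0.471, edgeR adjusted p = 0.043). It was the 1 of 10 members called, against 6.35% of all genes and 2.32% in that direction. The call was kept in 3 of 12 fits that left out 1 library and lost in a fit of the compared groups only (adjusted p = 0.11) and with voom (0.085). Without LPS library 1 at 72 h the difference was -1.08 (adjusted p = 0.108).

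Between 24 h and 72 h after LPS alone, Zfp36 and Fos rose, 2 of 10 members, where 31.1% of all genes were called and 14.7% rose. The 3 Zfp36 libraries at 72 h were all above those at 24 h, and its log2 change was 1.96 (SE 0.342, edgeR adjusted p = 0.000803). That call was made in all 6 fits without 1 library, with log2 changes from 1.32 to 2.23. The rise of Fos was 1.17 on the log2 scale (SE 0.42, edgeR adjusted p = 0.0447) with overlapping libraries, and the call was kept in 2 of 6 such fits. Without LPS library 1 at 72 h its value was 0.72 (adjusted p = 0.242). Jun had 0.89 (adjusted p = 0.153) and Dusp1 0.70 (adjusted p = 0.17). With antibody the same interval gave 0 of 10 members called by edgeR and 0 at an unadjusted p below 0.05, with 0% and 4.26% of all genes, and DESeq2 and voom called 0 members. Zfp36 then had a log2 change of 0.24 (SE 0.331).

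Over all 5 groups, Zfp36 was ordered LPS 72 h (154 ± 96 CPM, SD, n = 3), PBS (140 ± 20.3, n = 5), antibody 72 h (72.1 ± 3.69, n = 3), antibody 24 h (60.9 ± 21.8, n = 3) and LPS 24 h (39.4 ± 6.33, n = 3). PBS and antibody at 72 h were the only neighbours in that order whose libraries did not overlap. For the other 9 members all 4 neighbouring pairs overlapped. By mean CPM, LPS at 24 h was the lowest group for 7 of 10 members: Fos, Fosb, Jun, Jund, Dusp1, Atf3 and Zfp36.

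Among the members called in no comparison, Egr1 varied widely. It was at 57.5, 33.5, 79.2, 61.3 and 132 CPM in PBS, 48.3, 12.9 and 14.3 CPM with antibody at 24 h, 75, 15.7 and 3.95 CPM with LPS at 72 h and 113, 50.2 and 2.83 CPM with antibody at 72 h. Each treated group held both a library in the PBS range and one below it. Its log2 changes against PBS were -1.53, -1.21 and -0.39 in these 3 groups, each with an SE above 1. Fosb was at 18.3, 7.5 and 31.6 CPM with antibody at 24 h, 31.4, 14.7 and 7.09 CPM with LPS at 72 h and 10.5, 26.5 and 14.1 CPM with antibody at 72 h, and overlapped PBS in every group. Junb, whose product can oppose Jun in AP-1, stayed between 31 and 78.2 CPM over all 17 libraries and between 42.9 and 57.4 CPM in PBS. Jund, the more constitutive Jun protein, ranged from 12.1 to 66.9 CPM and Ier2 from 32.7 to 91.7 CPM. Their log2 changes against PBS lay between -0.32 and 0.29 in all 4 treated groups, with overlapping libraries.

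Libraries within a treated group differed more from each other than the PBS libraries did, and they did so for many members at once. The ratio of the highest to the lowest library was wider than in PBS for 9 of 10 members in each of the 4 treated groups, although those groups held 3 libraries and PBS 5. For Egr1 the ratio was 3.95 in PBS, 12.5 with LPS at 24 h, 19 with LPS at 72 h and 40.1 with antibody at 72 h. At 72 h, LPS library 1 was the highest of its group for 10 of 10 members and library 3 the lowest for 9. LPS library 3 at 24 h was the highest for 9 members, and antibody library 1 was the highest for 7 at 24 h and 8 at 72 h. No PBS library was the highest for more than 4 members, while PBS library 3 was the lowest for 7. Averaged over the members, the deviation from the group mean in log2 CPM ran from -0.16 to 0.06 among PBS libraries and from -0.86 to 0.96 among treated ones. Among all tested genes, the SD of each member's deviations lay between percentile 67.7 (Ier2) and 99.4 (Atf3), with Zfp36 at 73.5. The share of all genes with a wider spread in treated groups is not given here.

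**Figure D3:**
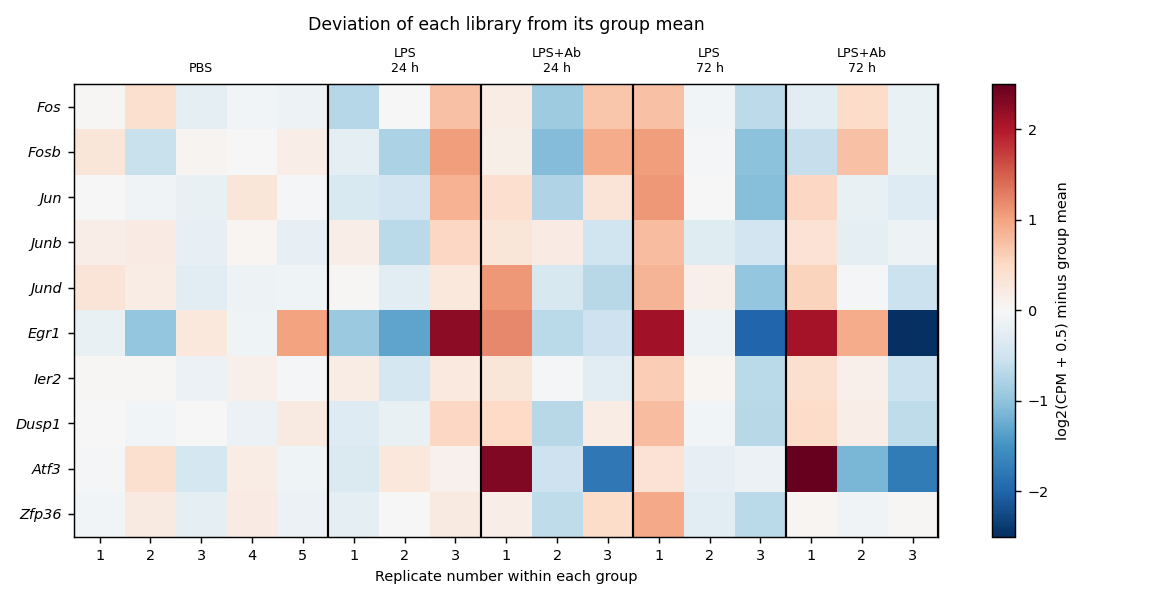
Colour gives log2(CPM + 0.5) of each gene (rows) in each library (columns, by group and replicate number) minus its group mean, with colours saturating at 2.5 either way. LPS library 1 at 72 h is red in all 10 rows and library 3 is the lowest of its group in 9, while the PBS columns are pale except for Egr1 and Fosb.

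Over the 17 libraries, 43 of 45 pairs of members had a positive Pearson correlation of their deviations from group means, from -0.23 to 0.89. Jun and Dusp1 had the highest value (0.894) and Egr1 and Dusp1 the next (0.89). Fos went with Zfp36 (0.82) and Fosb (0.806). The 2 pairs below 0 were Fos with Atf3 and Fosb with Atf3. Against the mean of the other members, the correlation was 0.929 for Dusp1, 0.871 for Jun, 0.865 for Ier2, 0.858 for Jund, 0.855 for Egr1, 0.679 for Junb, 0.618 for Zfp36, 0.523 for Fos, 0.478 for Fosb and 0.409 for Atf3. These values describe 17 points that share a library and its total count. Zfp36, the member with the clearest group differences, was not among the 5 that followed the others most closely from library to library.

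Atf3 showed the most uneven pattern. It was at or below 1.1 CPM in 15 of 17 libraries and at 8.05 and 13.8 CPM in antibody library 1 at 24 h and antibody library 1 at 72 h. These values rest on 115 and 164 reads, against 0 to 14 in the rest. Its log2 changes against PBS were 1.99 at 24 h and 2.67 at 72 h with antibody, and they became -1.01 and -1.75 without those 2 libraries. In the same pair of libraries Jund was at 66.9 and 40 CPM, above the 24.8 to 37.1 CPM of PBS. This was not particular to the pair: in LPS library 1 at 72 h Jund was at 43.9 CPM, with Atf3 at 0.733 CPM. Some HSPC markers and erythroid markers there were also apart from the other libraries of their groups. Ly6a was at 530 and 632 CPM, against 58.1 to 266 CPM in the others at 24 h and 64.7 to 84.9 CPM at 72 h. Kit was also the highest of each group, at 432 and 589 CPM. Cd34 (234 and 340 CPM), Mecom (5.11 and 5.55 CPM) and Hlf (23.2 and 20.9 CPM) were instead the lowest. Flt3, Slamf1, Procr and Meis1 were not at the same end in both. Klf1, an erythroid transcription factor, was at 92.6 and 39.7 CPM (1.3 to 27.5 and 0.495 to 6.63 CPM in the others). LPS libraries 1 and 3 at 24 h, without antibody, had Klf1 at 41.6 and 42 CPM. In the pair the 9 erythroid markers summed to 330 and 95.2 CPM (13.5 to 62.1 and 4.67 to 35.4 CPM in the others). The part of these markers in the Atf3 and Jund values was not tested. What these libraries shared in handling is not given in the sources used here.

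The 10 genes outside the set whose deviations were most like the mean deviation of the members were Rgs1 (Pearson r = 0.941 over 17 libraries), Prkd2 (0.938), Ppp1r15a (0.924), Cttn (0.919), Dlg3 (0.904), Zfp688 (0.895), Gm11175 (0.895), Pdzk1ip1 (0.894), Rbpms2 (0.893) and Pdk2 (0.892). Rgs1 encodes a regulator of G protein signalling and Ppp1r15a a stress-induced subunit of a translation phosphatase. Gm11175 overlaps Jund on the opposite strand, and reads may be shared between them. Among the other immediate early genes listed, Dusp6 (0.882), Dusp2 (0.874) and Ier3 (0.87) came closest, and 19 of 24 were above 0 (median 0.57). Cell type markers moved with the members as well. All 9 erythroid markers had a positive r (0.505 to 0.756), as did 7 of 7 B and plasma cell markers (0.287 to 0.662), while all 9 neutrophil markers had a negative one (-0.736 to -0.175), and over all 14910 other genes the median was 0.00178. The part of the cell makeup of each library in the members' shared spread was not tested. Jun, Junb, Dusp1 and Zfp36 also overlap a gene on the opposite strand (Junos, Prdx2, Ergic1 and Gm44710), and since the strand setting of the counting is not given in the sources used here, their reads cannot be told apart where they overlap. Gm44710 was at 1.68 to 5.04 CPM, far below Zfp36, and Ergic1 was at 97.7 to 181 CPM, above Dusp1.

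Other immediate early genes, 26 listed and 24 tested, were mostly lower too. With LPS at 24 h 14 of 24 fell and none rose, where 18.5% of all genes were called lower and 19.1% higher. The median log2 change of the 24 was -0.90. Nr4a1, an orphan nuclear receptor, was at 10.8 ± 1.94 CPM in PBS (SD, n = 5) and 2.32 ± 0.839 CPM with LPS (SD, n = 3), a log2 change of -2.19 (edgeR adjusted p = 0.00113). Egr3 had -2.86, Plk2 -2.20 and Trib1 -1.65, Egr3 from a mean of 0.776 CPM in PBS. Plk2 was not called with a replicate block (adjusted p = 0.0762) and was called in 5 of 8 fits without 1 library, and the count of 14 became 8 without LPS library 1. With antibody at 24 h 7 of 24 fell (1 without antibody library 2, 3 to 4 without PBS library 2, 3 or 5), at 72 h none with LPS and 2 with antibody (Egr3 and Btg2). Of all genes 12.5% were called lower with antibody at 24 h, 0% with LPS at 72 h and 6.43% with antibody at 72 h. The call of Egr3 at 72 h was made in 0 of the 5 fits without 1 library in which it passed the filter. Between 24 h and 72 h of LPS, 9 rose and 1, Plk3, fell, where 14.7% of all genes rose and 16.4% fell. The 9 became 4 without LPS library 1 at either time and 3 without LPS library 3 at 24 h, and Plk3 was called in 1 of 6 fits without 1 library.

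Btg2, an antiproliferative gene that responds to p53 and to growth factors, had its 5 group means in the same order as Zfp36, and its libraries with LPS at 72 h were closer together than those of Zfp36. It was at 31.3, 53.7, 30.7, 32.7 and 36.8 CPM in PBS, 10.5, 14.5 and 12.7 with LPS at 24 h, 49.8, 48.3 and 40.5 with LPS at 72 h, and 17.7, 18.7 and 14.6 with antibody at 72 h. No antibody library at 72 h reached the level of any PBS or LPS 72 h library. The log2 change with antibody at 72 h was -1.12 against PBS (edgeR adjusted p = 0.0088) and -1.44 against LPS (adjusted p = 0.00229). The antibody effect differed between the times by -1.65 (SE 0.342, adjusted p = 0.0142). These calls were made in 8 of 8, 6 of 6 and 12 of 12 fits that left out 1 library. The difference between the times was not called without the antibody libraries numbered 1 at both times (adjusted p = 0.0578).

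**Figure D4:**
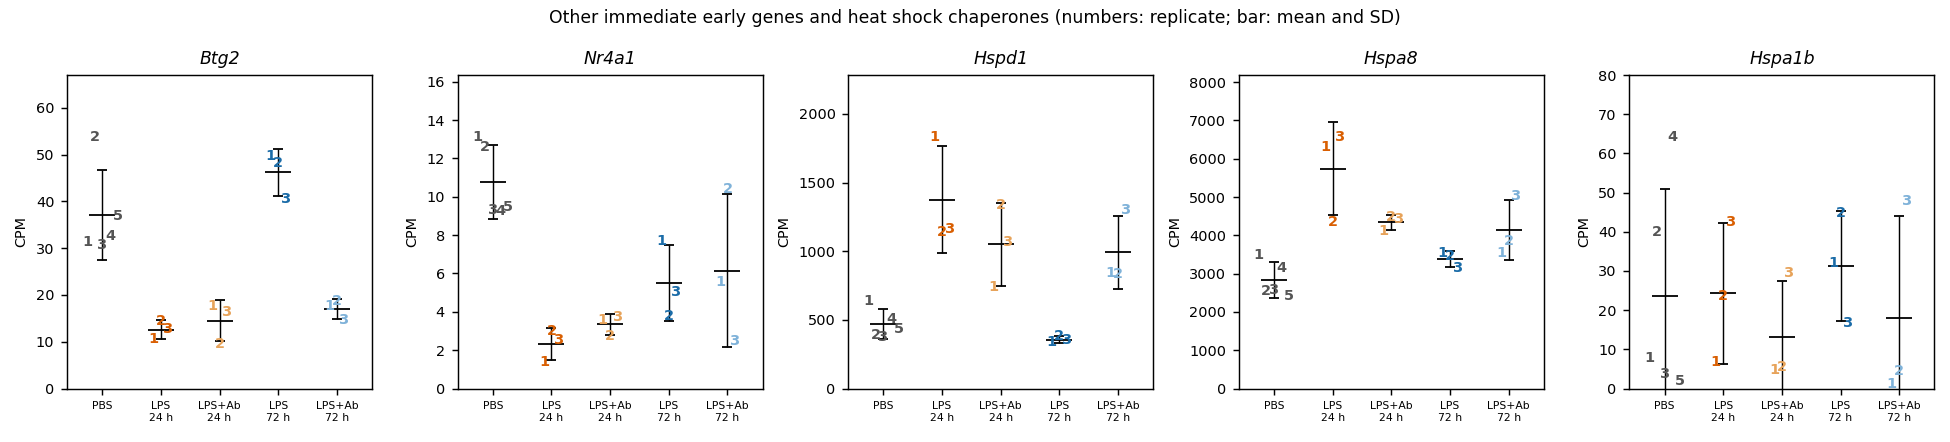
CPM (vertical axes from 0) in the 17 libraries by group for 2 other immediate early genes, Btg2 and Nr4a1, and 3 heat shock genes, Hspd1, Hspa8 and Hspa1b. Digits are replicate numbers and bars are the mean and SD, stopping at 0; Btg2 with antibody at 72 h (14.6 to 18.7 CPM) lies below all LPS libraries at 72 h, and Hspa1b spreads from 1.82 to 64.1 CPM within PBS.

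Few of the other AP-1 family genes were called. Of 8 tested, Batf, which pairs with Jun proteins, rose with LPS at 24 h (log2 change 0.75, SE 0.205, edgeR adjusted p = 0.0103), a call lost without LPS library 1, and none was called with antibody at 24 h or in either 72 h group against PBS. Batf3, a dendritic cell factor, rose from 24 h to 72 h of LPS (2.04, adjusted p = 0.00715) and was lower with antibody than with LPS at 72 h (-1.97, adjusted p = 0.0181), from a mean of 4.25 CPM with LPS. That last call was lost without LPS library 1 at 72 h (adjusted p = 0.0696). The summed level of the 8 was 212 to 238 CPM in PBS and 197 to 226 CPM with LPS at 24 h.

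Among 13 genes of the SRF and MAP kinase input, 2 rose and 2 fell with LPS at 24 h, and 1 rose and 5 fell with upper-quartile factors. With TMM factors 19.1% of all genes were called higher and 18.5% lower. Srf itself had a log2 change of 0.58 (edgeR adjusted p = 0.0285) and Map2k2, which encodes the ERK kinase MEK2, 0.65 (adjusted p = 0.00295). Srf was not called with a replicate block (adjusted p = 0.0861) and was called in 4 of 8 fits without 1 library, being lost without PBS library 2 or 5 or LPS library 1 or 3. Mrtfa and Mrtfb, the actin-sensing partners of SRF, fell by 0.83 (adjusted p = 0.00179) and 0.88 (adjusted p = 0.0169) on the log2 scale. Mrtfa was also lower with antibody than with LPS at 72 h (-0.67, adjusted p = 0.0222), a call made in 2 of 6 fits without 1 library and lost without LPS library 1 or 3 or antibody library 1 or 2 (adjusted p from 0.0579 to 0.105). With LPS at 72 h, 0 of 13 were called against PBS by edgeR. Transcript levels do not measure kinase or SRF activity.

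Heat shock genes were used as a second readout of stress and handling. With LPS at 24 h 19.1% of all genes were called higher. Of the 11 heat shock genes tested 8 rose and none fell, led by the mitochondrial chaperones Hspd1 (log2 change 1.55, edgeR adjusted p = 0.000487) and Hspe1 (1.53, adjusted p = 0.00121). Hsph1 (1.38) and Hsp90aa1 (1.18) were also among them. The count was 8 in each fit without 1 library. With antibody 6 rose at 24 h (1 without antibody library 2) and 5 at 72 h (1 without antibody library 3, 2 to 3 without PBS library 2, 3 or 5), and 0 of 11 were called with LPS at 72 h against PBS. Of all genes 11.7% were called higher with antibody at 24 h and 6.81% at 72 h, and 0.0201% were called with LPS at 72 h. The direction of the called heat shock genes was opposite to that of Zfp36, Fos and Dusp1. The strictly inducible Hspa1a and Hspa1b, near-identical copies whose reads may be split, were called in no comparison and ranged 42.4-fold and 35.1-fold among PBS libraries. In those same PBS libraries Fos ranged 1.56-fold, Jun 1.42-fold, Zfp36 1.38-fold and Dusp1 1.3-fold. Jund ranged 1.49-fold, Junb 1.34-fold and Ier2 1.21-fold, while Egr1 ranged 3.95-fold, Atf3 2.74-fold and Fosb 1.84-fold. Across the 17 libraries the deviations of 10 of 11 heat shock genes had a negative r with the mean deviation of the members, from -0.514 for Hspd1 to -0.00234 for Hsp90ab1, with Hspa1b at -0.189. Dnajb1, which ranged 1.35-fold in PBS, was the exception at 0.695. The time from harvest to lysis is not given in the sources used here, and the part of handling in the members' values was not tested.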

How the data were processed

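RNA abundance in 17 HSPC libraries was analysed from 1 table of raw read counts per gene symbol that the authors deposited. Per the submitters' processing notes the build was GRCm38 and the tools were HISAT2 2.2.0, Subread, featureCounts 2.1.1, R 4.3.2 and DESeq2, with no role or order. The annotation, the strand setting and the treatment of multi-mapping reads are not given in the sources used here. Groups and replicate numbers came from the sample titles, and 0 columns of the table were left unmatched.

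The software was edgeR 4.0.16 under R 4.3.3. The filter filterByExpr (minimum count 10, minimum total 15) kept 14920 of 35321 genes, holding 99.9% of the counts. The quasi-likelihood test was applied in 1 fit of 5 group means over all 17 libraries with TMM factors, in 9 comparisons, of which 4 share the PBS libraries. Benjamini-Hochberg adjustment ran over all genes tested, and genes with an adjusted p below 0.05 were called. SEs are approximate (size of the change over the square root of F). Gene lengths were merged exons of GENCODE M21 on GRCm38.

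The members, lists and tests were chosen with earlier results of these data known. All members were named, and per listed group and comparison up to 4 called genes with the largest change, plus a few fixed genes. What libraries with equal replicate numbers share is not given in the sources used here. For LPS at 24 h against PBS the correlations of deviations of same-numbered libraries were 0.158 to 0.191 (mean 0.179). These are weak and do not establish a pairing. No other comparison had every pair over 0.1. The highest mean was 0.466, between the antibody groups at 72 h and 24 h, with pairs from -0.0217 to 0.723. For antibody against LPS at 72 h the mean was 0.199, with pairs from 0.0108 to 0.319. Alternatives were DESeq2 1.42.0 (Wald test, and its size factors), upper-quartile factors, no filter, a fit of the compared groups only, a replicate block, voom with quality weights in limma 3.58.1, and leaving out each library. Simulated counts covered 14920 genes in LPS at 24 h against PBS, with 100 genes changed at each fold size. Of these 73% were recovered at 2-fold and 97% at 4-fold, with 8 false calls. In the data 37.6% of genes were called, a far larger share than was changed in the simulation. These rates may therefore not carry over to the data.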

Additional observations from a re-analysis of the deposited data

Results flagged for a closer look

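Among PBS libraries, 34 genes were tested for a library far from the other 4, and 2 were singled out, near the 1 in 20 that chance gives. Both were in PBS library 2: Btg2 at 53.7 CPM, with the others at 30.7 to 36.8 CPM, and Klf2 at 12.3 CPM, with the others at 3.89 to 6.01 CPM.

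The antibody effect differed between 24 h and 72 h, by edgeR's test of the difference itself, for 1 member and 5 listed genes. The difference in log2 change (72 h minus 24 h) was -1.72 for Zfp36 and -1.65 for Btg2. It was 1.87 for Hspd1, 1.31 for Hsp90aa1, 0.98 for Dnaja1 and 0.84 for Bag3, all heat shock chaperones or their cofactors. In the 12 fits that left out 1 library, the difference was called in 12 for Btg2 and Hspd1, 7 for Hsp90aa1 and Dnaja1, 3 for Zfp36 and 1 for Bag3. With a replicate block Hsp90aa1, Dnaja1, Bag3 and Zfp36 were not called, though what equal numbers share is not given in the sources used here.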

How the results depend on the processing

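The fall of Zfp36 with LPS at 24 h and its rise from 24 h to 72 h were called under all 7 other settings and in all fits that left out 1 library. Counts of called members were less stable. In fits that left out 1 library they ran from 1 to 5 for LPS at 24 h against PBS (3 with all libraries), from 0 to 1 for antibody at 24 h, 0 to 0 for antibody at 72 h against PBS, 0 to 1 for antibody against LPS at 72 h, 1 to 3 from 24 h to 72 h of LPS and 0 to 1 for the antibody effect between times. Fitting only the groups compared gave 5 for LPS at 24 h, 2 for antibody at 72 h against PBS, 0 for antibody against LPS at 72 h, 1 from 24 h to 72 h of LPS and 0 for the difference between times. Without the filter the count was 0 for antibody at 72 h against PBS and 1 from 24 h to 72 h of LPS, and with voom 0 for the difference between times. Without the antibody libraries numbered 1, an alternative chosen after seeing the data, it was 0 for antibody at 72 h against PBS and against LPS, 1 from 24 h to 72 h of LPS and 0 for the difference between times. The causes were not tested.

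With a replicate block the count was 1 for LPS at 24 h and 0 for antibody at 24 h. It was 0 for antibody at 72 h against PBS and against LPS, 1 from 24 h to 72 h of LPS and 0 for the difference between times. Equal numbers are not stated to pair libraries in any of these comparisons. The block changed no other member count. Among heat shock genes it called 3 in place of 6 with antibody at 24 h and 1 in place of 5 with antibody at 72 h against PBS. As a hint from the data alone, each library correlated best with its own number in 6 of 6 for LPS at 24 h and for antibody at 72 h against PBS, and in 0 to 4 of 6 in the other comparisons of groups.

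Signs that turned belonged to values that were not called. Of 680 member values from fits that left out 1 library, 77 turned sign, and the ranges below are examples. Egr1, Fosb, Jund and Atf3 also crossed 0 in some comparisons. For Egr1 the log2 change from 24 h to 72 h of LPS ran from -1.86 to 1.90. Leaving out 1 library gave ranges of log2 change from -0.28 to 0.035 for Ier2 and -0.085 to 0.48 for Junb with LPS at 24 h. With LPS at 72 h against PBS they were -0.50 to 0.41 for Zfp36, -0.57 to 0.14 for Fos, -0.77 to 0.30 for Jun and -0.75 to 0.022 for Dusp1. Dusp1 ran from -0.36 to 0.12 with antibody at 72 h against PBS, Jun from -0.012 to 0.81 between antibody and LPS at 24 h, and Zfp36 from -0.015 to 0.48 between the antibody groups. Between antibody and LPS at 72 h Fos ran from -0.50 to 0.19, Jun from -0.98 to 0.065 and Dusp1 from -0.13 to 0.61. Voom gave -0.32 for Jun between antibody and LPS at 24 h, and leaving out the antibody libraries numbered 1 gave -0.091 for Dusp1 at 72 h.

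The share of all genes called for LPS at 24 h was 37.6%, and 17.3% with DESeq2 and 23.7% without the filter, which both tested more genes. Antibody at 24 h had 24.2%, 11.8% with DESeq2, 14.5% without the filter and 11.5% with the block. Antibody at 72 h had 13.2% against PBS, and 8.11%, 7.34% and 2.51% under the same settings. Antibody against LPS at 72 h had 15.1%, 8.47% with DESeq2, 8.15% without the filter, 8.11% for the compared groups only and 29.7% with voom. From 24 h to 72 h of LPS it was 31.1%, and 14.5% with DESeq2 and 18.8% without the filter. LPS at 72 h against PBS had 0.0201% and 14.5% with voom. With upper-quartile factors the median over all genes tested for LPS at 24 h went from a log2 change of -0.03 to -0.16. For other listed genes only the 57 named values were followed, each of them called and picked for a large change. Of these, 363 of 399 kept their call under the other settings and 325 of 425 in fits that left out 1 library. That 0 turned sign says little, because values picked in this way seldom can. At the low counts of Atf3, single libraries decide its values.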
